A study of Mus musculus with 29 samples.

Results

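Etnk1 encodes ethanolamine kinase 1, and 9 further genes encode enzymes that make phosphatidylethanolamine and phosphatidylcholine, the main phospholipids of animal membranes. These 10 genes were taken by symbol from the 24448 gene rows of the deposited count table, and all 10 had a row. Etnk1 was selected on its measured counts, which were higher in embryos treated with hydroxyurea (HU) than in controls, so its difference between HU and control is given as a description, without a test. The other 9 (Etnk2, Pcyt2, Chka, Chkb, Pcyt1a, Pcyt1b, Cept1, Pisd and Pemt) were chosen for their place in the pathway, and their differences were tested.

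The 29 libraries came from single embryos or cells of BDF1 mice and were made by Smart-seq2, which copies whole transcripts into cDNA without marking their strand. Of these, 9 were control and 8 were HU-treated embryos made by nuclear transfer, in which a cumulus cell nucleus is injected into an oocyte without its own nucleus. All embryos shared activation for 6 h with 10 mM strontium, CB and EGTA (named here as labelled), and were then placed at random in medium with 0 or 10 uM HU, an inhibitor of ribonucleotide reductase. HU was removed after 24 h and 2-cell embryos were collected at 28 h. The last 12 libraries were single, untreated cumulus cells, the somatic cells around the oocyte that supplied the donor nuclei. An embryo's library pools its cells and its values are scaled to the library total. Differences between its cells, or in its total RNA, are therefore not seen in the scaled values. Separate females or days are not named in the labels, so a p-value covers only the spread among these embryos, which may be partly technical.

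Phosphatidylethanolamine and phosphatidylcholine are built by parallel branches known together as the Kennedy pathway. A kinase phosphorylates ethanolamine (Etnk1, Etnk2) or choline (Chka, Chkb, which also accept ethanolamine), a cytidylyl transferase activates the product with CTP (Pcyt2 for ethanolamine, Pcyt1a and Pcyt1b for choline), and a transferase joins it to diacylglycerol (Cept1 for both). Mitochondria also make phosphatidylethanolamine by decarboxylating phosphatidylserine (Pisd), and Pemt, best known from liver, methylates phosphatidylethanolamine to phosphatidylcholine.

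Gene counts per library ran from 1801261 to 3472116 in control embryos, from 2442541 to 3757492 in HU embryos and from 317195 to 4051494 in cumulus cells. The precursor of ribosomal RNA, Rn45s, took 15.2% to 32.5% of gene counts in embryos and 49.3% to 86.6% in cells, which lowers the CPM (counts scaled to 1 common library total) of every other gene in the cells. Gene counts per ERCC spike-in count were 10.8 to 24.1 in embryos and 0.360 to 3.04 in cells. The 12 oocyte markers summed to between 2420 and 4883 CPM in embryos and to at most 47.0 CPM in a cell, with 9 of 12 (Zp1, Zp2, Zp3, Gdf9, Oosp1, Ooep, Zar1, Npm2 and Padi6) at 0 in all cells. The 16 cumulus and granulosa markers all had counts in the cells and summed to 385 to 11670 CPM there against 47.2 to 156 CPM in embryos, where Ptx3 was at 0. That sum rested largely on the steroid synthesis genes Hsd3b1 and Cyp11a1 (means of 1954 and 1818 CPM in cells). A few markers did not separate the groups or ran the other way: Kitl averaged 1.43 CPM in cells and 18.2 CPM in control embryos, Amhr2 15.8 and 28.3, Amh 1.504 and 1.68, Nr5a2 25.8 and 20.99, and Has2 0.972 and 0.892 CPM.

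The upstream sequences of both ethanolamine kinase genes are shown because embryos held mainly Etnk1 and cumulus cells also held Etnk2. Each is the 250 bases before the RefSeq start of the gene (GRCm38.p6, plus strand), at chr6:143166980-143167229 for Etnk1 and chr1:133363322-133363571 for Etnk2. Capitals mark matches on either strand to GGGCGG (a GC box) and TGACG (the core of a cyclic AMP response element). The GC box matches of Etnk2 overlap each other in 1 place, and in neither window does a GC box overlap a TGACG.
Etnk1: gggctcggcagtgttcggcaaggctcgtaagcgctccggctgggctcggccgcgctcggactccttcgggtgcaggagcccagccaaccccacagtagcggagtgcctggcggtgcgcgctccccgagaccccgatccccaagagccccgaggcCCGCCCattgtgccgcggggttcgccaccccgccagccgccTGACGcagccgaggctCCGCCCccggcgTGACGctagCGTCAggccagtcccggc
Etnk2: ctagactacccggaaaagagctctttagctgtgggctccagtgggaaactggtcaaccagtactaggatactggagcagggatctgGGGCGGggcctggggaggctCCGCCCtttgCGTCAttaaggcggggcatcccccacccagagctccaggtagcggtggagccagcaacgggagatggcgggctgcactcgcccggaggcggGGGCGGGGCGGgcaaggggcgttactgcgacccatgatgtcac

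The Etnk1 window held 31 CpG dinucleotides at 74.8% GC, and 5.19% of the 32851 windows of this length held at least as many CpG. The Etnk2 window held 15 CpG at 65.2% GC, and the median window held 6 at 52.4% GC. Etnk1 had 2 GC box matches and 3 TGACG matches, and Etnk2 had 4 and 1. A GC box was found in 32.7% of all windows and TGACG in 17.8%. Neither window held CCAAT (33.8% of windows) or TATAAA (12.4%). These letters describe the sequence and were not tied to any measurement here.

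Etnk1 phosphorylates ethanolamine and opens the ethanolamine branch. It lies on chromosome 6 (143167221 to 143232307, plus strand, GENCODE M21 on GRCm38). Its level, as CPM scaled by the trimmed mean of M values (TMM), was 10.9, 11.1, 18.2, 12.3, 12.2, 23.4, 13.8, 7.13 and 13.8 in control embryos 1 to 9. It was 40.0, 70.8, 28.8, 55.8, 87.8, 26.9, 70.6 and 16.1 in HU embryos 1 to 8. HU 8 was the 1 treated embryo inside the control range, and the other 7 lay above the highest control, which was control 6. Control embryos averaged 13.6 ± 4.70 CPM (SD, n = 9) and HU embryos 49.6 ± 25.5 CPM (SD, n = 8), and the ratio of the means was 3.64. The fitted log2 fold change was 1.86 ± 0.32 (SE), a description of the contrast that chose the gene.

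The counts behind these levels were 23 to 52 in each control embryo and 42 to 234 in each HU embryo. They summed to 312 over the controls and 1189 over the HU embryos. The antisense gene 1700126G02Rik shares 201 exonic bases with Etnk1 and has no row in the count table, so reads from either strand there cannot be told apart. Gene length in the FPKM table (reads scaled by gene length and library total) was 6434 bases for Etnk1, shorter than its 14151 bases of merged exons in GENCODE M21.

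Etnk2, the paralog of Etnk1, was barely present in embryos. The gene is on chromosome 1 (133363572 to 133380336). Among controls 5 of 9 embryos had a count, 13 in all with a highest value of 5. Among HU embryos 4 of 8 had a count, 15 in all with a highest value of 7. These counts fell under the filter on low counts, so Etnk2 was not tested.

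**Figure D1:**
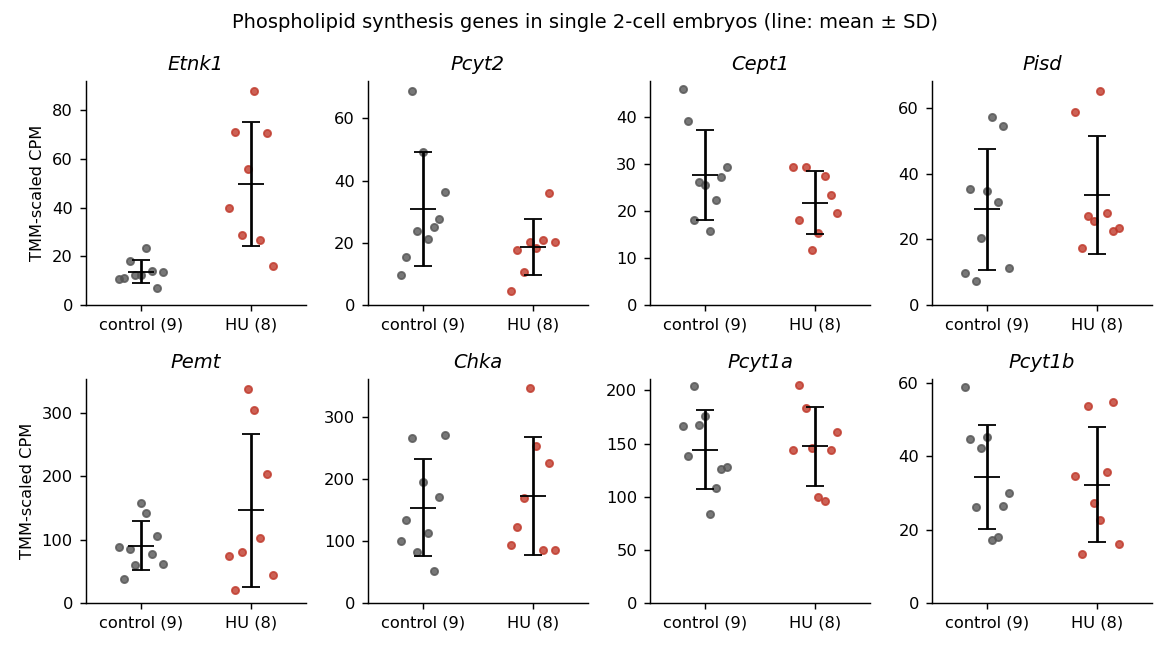
TMM-scaled CPM of 8 phospholipid genes in each control (grey, 9) and HU (red, 8) embryo, 1 point per embryo, with the mean and SD as bars. Etnk1 is separated except for HU 8, whereas the other 7 genes overlap between groups, and Pemt shows 3 HU embryos above the highest control.

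Of the 9 other members, 7 passed the filter on low counts in embryos, and 0 of 7 differed between HU and control at an adjusted p under 0.05 in the edgeR quasi-likelihood test. Across all 11476 genes tested the share called was 0.0%, so this count sits at the background. At an unadjusted p under 0.05 there were also 0 of 7, where 5.85% of all genes fell (3.81% as 437 higher and 2.04% as 234 lower in HU). That split depended on scaling, with 629 higher and 27 lower under ERCC scaling and 351 and 291 by library size alone. Of the 7, 4 had a fitted value above 0, as did 53.6% of all genes. None of the 7 had every HU embryo above every control, which was so for 0.0174% of all genes. DESeq2 likewise called 0 of these 7, where it called 0.0261% of all genes.

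In the ethanolamine branch, Pcyt2, which makes CDP-ethanolamine, had the lowest fitted value. Pcyt2 is on chromosome 11 (120610087 to 120617936, minus strand). Its lowest, median and highest levels were 9.82, 25.2 and 68.7 CPM in controls and 4.65, 19.3 and 36.2 CPM in HU embryos. The groups overlapped, with 1 HU embryo (HU 1) below every control and 1 above the control median. Means were 18.6 ± 9.08 (SD, n = 8) and 30.8 ± 18.3 CPM (SD, n = 9). This gave a log2 fold change of -0.72 ± 0.38 (SE; 95% interval -1.51 to 0.07, edgeR adjusted p = 0.835), so a fall to 0.352 of the control level lies inside the interval and a rise beyond 1.05-fold does not.

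Cept1, the transferase that ends both branches, stood at 15.8, 26.2 and 46.0 CPM (lowest, median, highest) in controls and at 11.8, 21.5 and 29.4 CPM in HU embryos. The gene is on chromosome 3 (106502260 to 106547802, minus strand). The 2 highest embryos were both controls and 2 HU embryos fell below every control, while the rest overlapped. The log2 fold change was -0.35 ± 0.27 (SE; 95% interval -0.91 to 0.22, edgeR adjusted p = 0.877). Cept1 shares 771 exonic bases with Dennd2d on the opposite strand, a gene with at most 13 counts in any embryo.

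Pisd makes phosphatidylethanolamine inside mitochondria. It lies on chromosome 5 (32736301 to 32785646, minus strand), and its levels were 7.38, 31.3 and 57.2 CPM (lowest, median, highest) in controls and 17.3, 26.4 and 65.3 CPM in HU embryos. In HU, embryos 1 and 5 stood at 58.9 and 65.3 CPM, above every control, and the other 6 lay within the control range. The log2 fold change was 0.20 ± 0.39 (SE; 95% interval -0.61 to 1.02, edgeR adjusted p = 0.954). The table also has rows for the pseudogene copies Pisd-ps1 (32.0 ± 13.5 CPM under HU, SD, n = 8, against 19.9 ± 7.47 CPM, SD, n = 9) and Pisd-ps2 (7.78 ± 4.80 and 10.4 ± 4.87 CPM). Reads could be split between these copies and Pisd, so the Pisd values are uncertain.

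Pemt, the methyltransferase that turns phosphatidylethanolamine into phosphatidylcholine, varied most widely among HU embryos of the 8 members past the filter. Pemt is on chromosome 11 (59970614 to 60046489, minus strand). Its levels were 37.0, 85.8 and 157 CPM (lowest, median, highest) in controls and 19.98, 91.6 and 338 CPM in HU. HU 4, 5 and 7 stood at 338, 305 and 204 CPM, above every control, and HU 2 stood below every control. These 3 embryos also had 2-cell stage gene sums over 1000 CPM (described with the embryo-to-embryo differences). So did HU 3 and control 3, whose Pemt levels were 79.8 and 85.8 CPM. The part of that stage in the Pemt level was not tested. The highest HU embryo was 16.9 times the lowest, against 4.25 times among controls, and the coefficients of variation were 83.1% and 43.3%. For genes with a mean of at least 10 CPM the median coefficients were 43.4% in HU and 38.5% in controls. The log2 fold change was 0.69 ± 0.42 (SE; 95% interval -0.18 to 1.56, edgeR adjusted p = 0.840), and the spread itself was not tested.

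In the choline branch, Chka, the choline kinase, lies on chromosome 19 (3851773 to 3894369, plus strand). It stood at 51.3, 133 and 271 CPM (lowest, median, highest) in controls and 84.7, 146 and 347 CPM in HU embryos. The groups overlapped over nearly their whole range, with HU 4 alone above the highest control. The log2 fold change was 0.17 ± 0.33 (SE; 95% interval -0.51 to 0.85, edgeR adjusted p = 0.954), and its sign turned without HU 4 (-0.056).

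Pcyt1a, the main CTP:phosphocholine cytidylyl transferase, lies on chromosome 16 (32430921 to 32475070, plus strand). It was the steadiest member, at 83.4, 138 and 204 CPM in controls and 95.9, 145 and 205 CPM in HU embryos. Its coefficients of variation were 26.0% and 25.3%, the lowest of the 8 members past the filter in both groups. Its log2 fold change was 0.03 ± 0.19 (SE; 95% interval -0.37 to 0.43, edgeR adjusted p = 0.987), with a sign that turned in 6 of 29 alternatives. A rise above 1.35-fold or a fall below 0.774 of the control level lay outside the interval.

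Pcyt1b is the second gene for this transferase, and its loss in mice is known to impair the gonads. It lies on chromosome X (93654863 to 93749951, plus strand) and stood at 17.1, 30.0 and 58.9 CPM in controls and 13.3, 31.0 and 54.9 CPM in HU embryos. The ranges nearly coincided, with 2 HU embryos below every control and 0 above. The log2 fold change was -0.09 ± 0.32 (SE; 95% interval -0.75 to 0.57, edgeR adjusted p = 0.9748), and it was above 0 with ERCC scaling (0.075).

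Chkb, the second choline kinase gene, lies on chromosome 15 (89426360 to 89429908, minus strand). It had 1 count in 1 of 9 controls, 1 count each in 3 of 8 HU embryos and 0 in all cells, and was not tested. The gene Gm44502 shares 1552 exonic bases with Chkb on the same strand and has no row under that name. A row named ChkbCpt1b, which from its name may be this read-through gene, was at 0 in all libraries. How reads in shared bases were counted is not given in the sources used here, so these counts do not show that Chkb was silent.

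**Figure D2:**
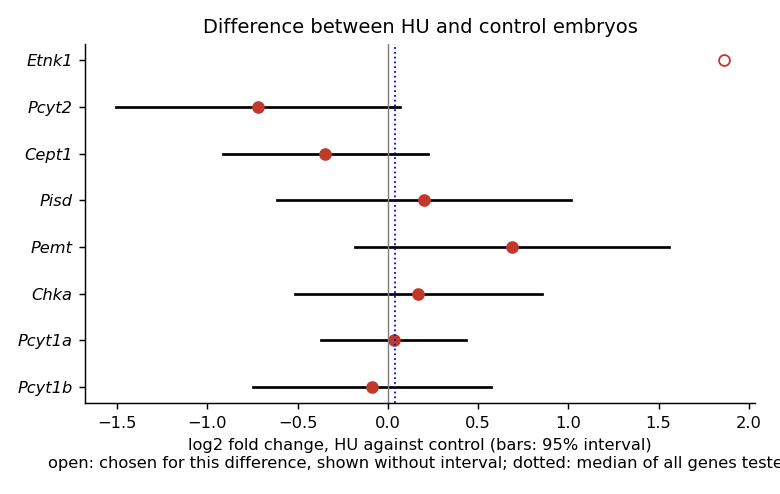
Fitted log2 fold change of HU against control embryos for 8 genes, with 95% intervals as bars and the median of all genes tested as a dotted line. All 7 tested genes have intervals that include 0, from Pcyt2 at -0.72 to Pemt at 0.69, and Etnk1 (open, 1.86) is shown without an interval because it was chosen for this difference.

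A further 81 genes of phospholipid supply and turnover, listed by role, all had a row, 7 of them under an older symbol, and 71 passed the filter. In the edgeR test 0 of 71 were higher and 0 lower in HU at an adjusted p under 0.05. At an unadjusted p under 0.05 there were 3 higher and 1 lower, 5.63% of 71 where the share over all genes was 5.85%. Their median log2 fold change was -0.002 and 35 of 71 (49.3%) were above 0, where all genes tested had a median of 0.04 and 53.6% above 0.

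The 4 genes at an unadjusted p under 0.05 were Ptdss2, Chpt1, Prelid2 and Lpcat2, of which Prelid2 and Lpcat2 are named because their values were seen. Ptdss2, which makes phosphatidylserine from phosphatidylethanolamine, had 113 ± 71.5 CPM under HU (SD, n = 8) against 54.7 ± 21.04 CPM without it (SD, n = 9; log2 fold change 1.04 ± 0.34, SE). The choline phosphotransferase gene Chpt1 had 19.0 ± 12.1 against 8.73 ± 4.41 CPM (log2 fold change 1.12 ± 0.41, SE). For Prelid2, of a family of phospholipid carriers in mitochondria, the values were 23.6 ± 13.5 and 9.19 ± 7.82 CPM. The lysophosphatidylcholine acyltransferase gene Lpcat2 had 8.55 ± 4.76 CPM under HU against 16.2 ± 5.94 CPM. Each had an edgeR adjusted p of 0.829.

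Partner enzymes that act beside the 10 genes overlapped between groups. Selenoi (row Ept1), the ethanolamine phosphotransferase that works beside Cept1, had 42.2 ± 12.1 CPM under HU (SD, n = 8) against 53.9 ± 16.8 CPM without it (SD, n = 9; log2 fold change -0.36 ± 0.24, SE). Ptdss1, the phosphatidylserine synthase that uses phosphatidylcholine, stood at 57.3 ± 18.2 and 68.8 ± 13.4 CPM. Of 6 transporters of choline and ethanolamine past the filter, the most abundant were Slc44a2 (86.7 ± 40.2 and 80.8 ± 39.5 CPM) and Flvcr2 (31.2 ± 18.7 and 29.7 ± 14.9 CPM). The choline transporter gene Slc44a1, named after its values were seen, had 10.8 ± 8.004 against 4.16 ± 4.38 CPM (log2 fold change 1.36 ± 0.67, SE; edgeR adjusted p = 0.835). Of 3 genes that supply or remove ethanolamine phosphate, the most abundant were the sphingosine kinase genes, with Sphk2 at 63.8 ± 18.5 and 66.6 ± 10.3 CPM and Sphk1 at 28.6 ± 26.8 and 31.5 ± 18.4 CPM.

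The most abundant genes of the other lists are given next. Their lists held 0 genes past the adjusted threshold, as did the whole table, so this sets no list apart. Among 4 choline oxidation genes the most abundant were Aldh7a1 (31.2 ± 17.5 CPM under HU against 36.1 ± 19.6 CPM) and Chdh, the choline dehydrogenase gene (13.9 ± 8.41 and 17.4 ± 7.42 CPM). Among 11 genes of diacylglycerol supply they were the lipin gene Lpin2 (110 ± 31.5 and 118 ± 32.4 CPM) and the acyltransferase gene Gpat4 (107 ± 46.3 and 119 ± 32.99 CPM). In the CDP-diacylglycerol branch (7 genes) they were Pgs1 of cardiolipin synthesis (138 ± 58.6 and 169 ± 35.1 CPM) and the phosphatidylinositol synthase gene Cdipt (75.8 ± 38.2 and 61.6 ± 28.9 CPM).

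Among 9 lysophospholipid acyltransferases the most abundant were Lclat1 (117 ± 138 CPM under HU against 59.7 ± 36.2 CPM) and Lpcat4 (79.0 ± 47.2 and 91.7 ± 20.5 CPM). Of 9 turnover genes they were the phospholipase D gene Pld1 (216 ± 75.9 and 274 ± 71.8 CPM) and Gpcpd1, which cleaves glycerophosphocholine (178 ± 64.3 and 126 ± 49.4 CPM). Of 6 genes of mitochondrial transfer they were Stard7, a phosphatidylcholine carrier (125 ± 48.8 and 135 ± 36.7 CPM), and Slc25a51 (112 ± 23.4 and 122 ± 28.7 CPM), which is now known as a mitochondrial NAD carrier. Of 4 genes that add ethanolamine phosphate to GPI anchors they were Pigf (58.7 ± 27.6 and 61.0 ± 20.2 CPM) and Pign (35.4 ± 14.1 and 32.5 ± 11.7 CPM). Among 8 regulators of sterol and lipid synthesis they were Insig1 (200 ± 55.3 and 220 ± 20.7 CPM) and Scap (127 ± 28.0 and 128 ± 27.2 CPM).

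Levels were set against each other per length, in FPKM, to ask which enzyme messages embryos held most of. The order rests on the lengths of the FPKM table, and no others were tried. Against merged exons these were 2687 of 12024 bases for Chka, 5194 of 7412 for Pcyt1a and 2150 of 5750 for Pisd. In control embryos Pemt came first at 74.1 ± 34.4 FPKM (SD, n = 9), followed by Chka at 56.4 ± 26.4 and Pcyt1a at 27.9 ± 7.68 FPKM. Pcyt2 (16.8 ± 9.94), Pisd (13.96 ± 9.22), Cept1 (9.57 ± 3.19) and Pcyt1b (6.58 ± 2.72 FPKM) formed the middle. Etnk1 stood at 2.11 ± 0.67 FPKM, so the kinase message of the ethanolamine branch was lower than that of every choline branch member except Chkb. Etnk2 (0.269 ± 0.327 FPKM) and Chkb (0.0237 ± 0.0710 FPKM) came last.

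Neighbours in this order were compared by a 2-sided exact sign-flip permutation test on log2(FPKM + 0.1) within embryos, adjusted over the 9 neighbour pairs; the smallest p it can give is 0.00391. Chka was higher than Pcyt1a in 7 of 9 embryos (exact permutation, adjusted p = 0.0281), Pcyt1a than Pcyt2 in 9 of 9 (0.0117) and Cept1 than Pcyt1b in 9 of 9 (0.0117). Pcyt1b was higher than Etnk1 in 8 of 9 (0.0176) and Etnk1 than Etnk2 in 9 of 9 (0.0117). Pemt and Chka (adjusted p = 0.301, exact permutation), Pcyt2 and Pisd (0.527), Pisd and Cept1 (0.582), and Etnk2 and Chkb (0.0938) did not differ beyond their spread. The call of Chka over Pcyt1a was lost in 7 of 9 fits with 1 control left out, at an adjusted p of 0.0563 without control 1, 2, 3, 5, 8 or 9 and 0.0703 without control 6 (exact permutation). That call also rests on the gene lengths used, since mean CPM in controls was close (151 for Chka and 145 for Pcyt1a). The call of Cept1 over Pcyt1b rests on them too (2899 and 5229 bases). In mean CPM of controls Cept1 was the lower of this pair, at 27.7 against 34.4. Without control 6, 3 of the 9 pairs passed in place of 5. Chka over Pcyt1a then did not pass, and Pisd stood between Cept1 and Pcyt1b, so that these were no longer neighbours. In HU embryos, with 8 embryos, 2 pairs passed, and Etnk1 (7.56 ± 4.04 FPKM, SD, n = 8) stood between Cept1 (7.38 ± 2.24) and Pcyt1b (5.97 ± 2.75) by mean log2 level.

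**Figure D3:**
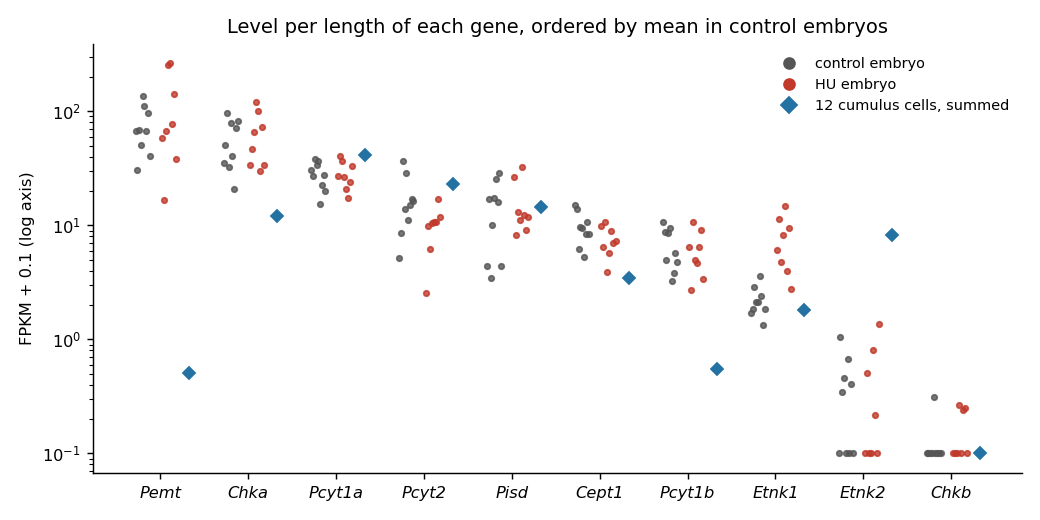
FPKM plus 0.1 on a log axis for the 10 genes, ordered by their mean log2 level in control embryos (grey), with HU embryos (red) and the sum of 12 cumulus cells (blue). Pemt leads in embryos and is near the bottom in cells, whereas Etnk2 is near the bottom in embryos and reaches 8.15 FPKM in cells.

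Cumulus cells were set beside control embryos to show how the donor cell type differs in the same enzymes. With no animal or culture named for them, the 12 cells are treated as 1 sample with a summed count of 24058974, and no test was run. In cells the order per length was led by Pcyt1a (41.1 FPKM), Pcyt2 (23.0), Pisd (14.3) and Chka (12.02 FPKM). Among genes at 1 CPM or more in either group, 17.3% were at least 2-fold higher in cells and 53.8% at least 2-fold lower, with 1 CPM added to both sides. Of the 10 members, 1 was at least 2-fold higher and 4 were at least 2-fold lower. With Rn45s and mitochondrially encoded genes left out of the totals these counts became 3 (Etnk2, Pcyt1a and Pcyt2) and 3 (Pemt, Pcyt1b and Chka), where 29.2% and 41.3% of all such genes stood at least 2-fold higher and lower.

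Etnk2 was the member with the largest excess in cells. Its summed level was 18.6 CPM (exact Poisson 95% interval 16.9 to 20.4), 30.3 times the control mean of 0.614 ± 0.745 CPM (SD, n = 9). Counts were found in 7 of 12 cells, with 39.6% of the sum from cell 7. Etnk1 was found in 7 of 12 cells too, at 11.02 CPM (9.73 to 12.4) against 13.5 ± 4.34 CPM in control embryos. The cells were not all the same ones. Cells 1, 3, 7 and 11 had counts of both kinases, cells 4, 6 and 8 of Etnk1 alone, and cells 5, 10 and 12 of Etnk2 alone. The summed cells thus held messages of both ethanolamine kinases, but not every cell did.

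Pemt, Pcyt1b, Chka and Cept1 were lower in cells. Pemt had 12 counts in the cells, all in cell 12, or 0.499 CPM (0.258 to 0.871) against 91.6 ± 42.5 CPM in control embryos (SD, n = 9), a 184-fold lower level. Pcyt1b had counts in 2 of 12 cells and stood at 2.33 CPM (1.76 to 3.02) against 34.4 ± 14.2 CPM, 14.8-fold lower. Cell 2 gave 94.6% of the Pcyt1b sum, and without it the log2 ratio, with 1 CPM added, moved from -3.41 to -4.97. Chka stood at 32.3 CPM (30.1 to 34.6) in 11 of 12 cells against 151 ± 71.1 CPM, 4.69-fold lower. Cept1 stood at 9.64 CPM (8.44 to 10.97) in 7 of 12 cells against 27.7 ± 9.24 CPM, 2.88-fold lower.

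Pcyt1a, Pcyt2 and Pisd were closer between cells and embryos. Pcyt1a was found in all 12 cells at 213 CPM (208 to 219) against 145 ± 39.9 CPM. Pcyt2 stood at 42.2 CPM (39.7 to 44.9) against 30.9 ± 18.2 CPM, and 29.5% of its sum came from cell 11. Pisd stood at 30.7 CPM (28.5 to 32.97) against 30.0 ± 19.8 CPM. Chkb had 0 counts, with an exact Poisson upper limit of 0.153 CPM. The floor of 3 counts over the cells was 0.125 CPM, and since its control counts were also under 3, no fold is given. These intervals cover counting error only, since the libraries carry no molecular identifiers.

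The share taken by Rn45s, 58.4% of the summed cell counts, enters these ratios. With Rn45s and mitochondrially encoded genes left out of the totals, the median log2 ratio of all genes moved from -1.15 to -0.43. Etnk1 then stood above the embryos, 1.56 times the control mean in place of 0.813, and Etnk2 59.2 times. Pcyt1a stood at 2.86, Pcyt2 at 2.65 and Pisd at 1.99 times the control mean. Pemt (95.01-fold), Pcyt1b (7.63-fold), Chka (2.46-fold) and Cept1 (1.49-fold) remained lower in cells.

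**Figure D4:**
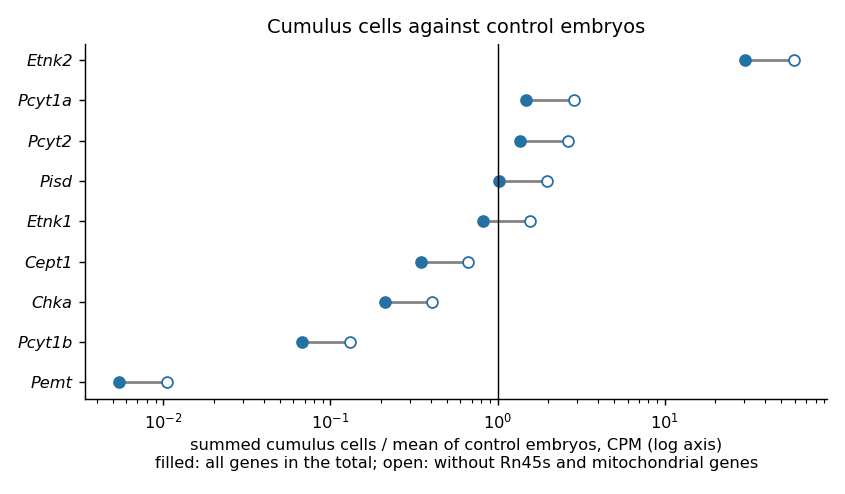
Ratio of the summed cumulus cells to the mean of 9 control embryos in CPM on a log axis, with all genes in the total (filled) and without Rn45s and mitochondrial genes (open). Etnk2 lies far above 1 and Pemt far below under both totals, and Etnk1 moves across 1.

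Embryos also differed among themselves in the summed level of 2-cell stage genes, which the embryo transcribes as its own genome becomes active. The 12 listed 2-cell genes, of which 11 had counts, summed to 146 to 2676 CPM. That sum rested largely on Sp110 (means of 308 CPM in controls and 643 CPM in HU) and AF067063 (123 and 219 CPM). Means were lower in HU for Zscan4d (1.00 against 8.65 CPM), Zscan4c (0.402 against 1.69), Usp17la (0.0508 against 0.792) and Tcstv3 (45.6 against 55.2). The others with counts were higher in HU. The sum was over 1000 CPM in control 3 and in HU 3, 4, 5 and 7. Members were compared with this sum and with 7 further measures of the libraries after centring each treatment group on its own mean, 64 relations in all, a comparison chosen after seeing the data. Correlations are across 17 embryos, with p from 100000 permutations within groups adjusted over the 64.

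Chka rose and fell with the 2-cell gene sum in both groups. The share of all genes with a relation this strong was not computed, so this does not set Chka apart from other genes. Pearson's r was 0.78 (permutation p = 0.00051, adjusted p = 0.0163) and Spearman's rho was 0.78 (permutation p = 0.00072, adjusted p = 0.0230). It was 0.60 within the 9 controls and 0.95 within the 8 HU embryos, and 0.76 without the 2 embryos farthest from the median. Chka also ran against the number of genes detected (r = -0.75, permutation p = 0.0002, adjusted p = 0.0128; rho = -0.79, adjusted p = 0.0211; r = -0.71 without the 2 farthest). The embryos with the fewest genes detected (HU 4 with 12887, control 3 with 13875 and HU 7 with 13892) all had 2-cell sums over 1000 CPM. The relations of Chka with the sum and with genes detected are therefore not separate. Over the 12 embryos with a 2-cell sum under 1000 CPM alone, r was 0.55 and rho 0.50 (permutation p of r = 0.0665). Their sums ran only from 146 to 693 CPM, and this narrower range alone can weaken r. The Chka levels of the 5 embryos above that limit were 170 to 347 CPM.

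Etnk1 had an r of 0.58 with the 2-cell genes (permutation p = 0.0370, adjusted p = 0.345) and a rho of 0.60 (adjusted p = 0.263), which did not pass, and r was 0.51 without the 2 farthest embryos. It was 0.40 within controls and 0.65 within HU embryos. The sum had a median of 874 CPM in HU and 314 CPM in controls, and the part of the 2-cell genes in the Etnk1 difference was not tested. Within the 12 embryos with a 2-cell sum under 1000 CPM, r was -0.03 and rho 0.01 (permutation p of r = 0.933). Their sums ran only from 146 to 693 CPM, and this narrower range alone can weaken r. These values therefore do not show which embryos the relation rests on. Among these 12, Etnk1 stood at 16.1 to 70.8 CPM in 4 HU embryos (median 33.4) and at 7.13 to 23.4 CPM in 8 controls (median 12.2). These values are of the contrast that chose the gene, and the ranges overlap. In control 3, with a 2-cell sum of 2624 CPM, Etnk1 was 18.2 CPM.

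Other relations of the members did not pass after adjustment. Pemt had an r of 0.55 with the 2-cell genes (permutation p = 0.0558, adjusted p = 0.345; rho = 0.61). Between members, 28 pairs were compared in the same way and 0 passed. The largest value was that of Pcyt1b and Cept1 (r = 0.68, permutation p = 0.00485, adjusted p = 0.136; rho = 0.71, adjusted p = 0.0762). Cept1 ran against Etnk1 (r = -0.52, permutation p = 0.0380, adjusted p = 0.238; rho = -0.62), in both controls (-0.69) and HU embryos (-0.45).

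**Figure D5:**
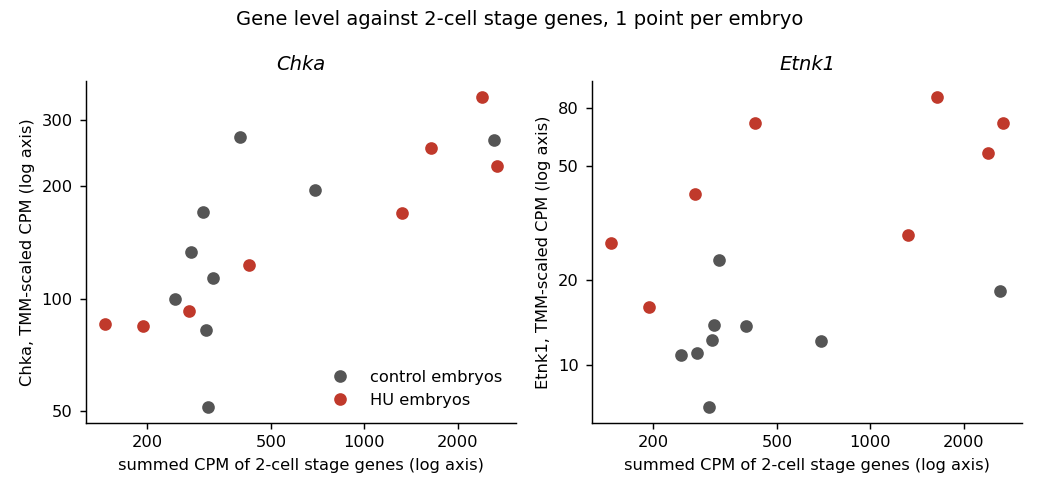
Chka and Etnk1 (TMM-scaled CPM, log axis) against the summed CPM of 12 genes of the 2-cell stage (log axis), 1 point per control (grey) or HU (red) embryo. Chka lies between 51.3 and 347 CPM and is higher at higher sums in both groups, and Etnk1 lies between 16.1 and 87.8 CPM in HU embryos and between 7.13 and 23.4 CPM in controls, with HU 8 (16.1 CPM) inside the control range.

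The genes whose levels ran most like Etnk1 over the 17 embryos, by Pearson's r of log2(CPM + 1) among 8617 genes, are named as a measure of likeness without a p. The 5 highest were the splicing factor gene Cwc22 (r = 0.84), Csnk2a1 of casein kinase 2 (0.80), the ornithine decarboxylase gene Odc1 (0.79), the telomere protein gene Terf1 (0.77) and Luc7l2 (0.77). This ranking shares the contrast that chose Etnk1. Cwc22 had 75.8 ± 41.2 CPM under HU (SD, n = 8) against 36.1 ± 14.2 CPM without it (SD, n = 9), and Odc1 had 462 ± 278 against 241 ± 73.4 CPM. After centring by group the 5 highest were others: Cirh1a (0.82), Cog8 (0.81), Rpl17 (0.81), Cnnm2 (0.80) and the histone variant gene H2afz (0.80). The members themselves had an r with Etnk1 over the 17 embryos of -0.57 (Cept1) to 0.33 (Pemt).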

How the data were processed

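The authors deposited gene counts (24540 rows, including 92 ERCC spike-ins) and matching FPKM values. STAR 2.7.3a, FastQC, R 4.0.2 and the mm10 build are named per the submitters' processing notes. For the counter, its annotation and its strand setting, the entry is: not given in the sources used here. For all 18588 genes with counts in at least 2 libraries, the deposited FPKM equalled the scaled count (CPM) over 1 whole-number length per gene (relative tolerance 0.001). Library sizes and tests used gene rows without ERCC, and 0 value columns were left unmapped.

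The 17 embryos were fitted with the edgeR 4.0.16 quasi-likelihood test (R 4.3.3, filterByExpr, TMM, no covariates), with Benjamini-Hochberg adjustment over all genes and a threshold of 0.05. Standard errors come from the F statistic. DESeq2 1.42.0 and limma 3.58.1 were alternatives. In simulated data (8 against 9 embryos, 11107 genes) the fit recovered 28% of genes changed 2-fold and 78% of those changed 4-fold, with 13 false calls among 158. Each simulated gene took the average spread at its level, not its own spread, so these shares may not hold for the real embryos. Level order used log2(FPKM + 0.1), and ratios to cells 1 CPM as pseudocount where a log2 ratio is given. A floor of 3 counts over the group was used for a count of 0. Annotation is GENCODE M21 on GRCm38, and upstream sequences are from RefSeq (GRCm38.p6), which had a window for 9 of the 10 genes.

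The members and gene lists were chosen with earlier results of these data known. Named genes were all members, list genes past the threshold or the 2 most abundant per list, and the 5 most like Etnk1 (pooled and after centring by group) at a mean of at least 10 CPM, without Gm, Rik or pseudogene rows. Library size alone, median-ratio factors, ERCC scaling, other filters, a replicate block, all 3 groups and each library left out were also tried.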

Additional observations from a re-analysis of the deposited data

Results flagged for a closer look

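Of 20 sets of values (10 genes in control and in HU embryos), 1 held an embryo far from the others. This was Chkb in control 5, at 0.381 CPM where the other 8 controls were at 0. The value is 1 read, and about 1 in 20 such sets is marked by chance alone.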

How the results depend on the processing

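Under all 29 alternatives, 0 of the 7 tested members and 0 of the listed pathway genes were called, and the log2 fold change of Etnk1 stayed between 1.34 and 2.07. The number of genes called over the whole table was 0 except with DESeq2 (3: Tmed7 and Shq1, named after their values were seen, and Etnk1) and 0 to 1 with 1 embryo left out (Etnk1, without HU 8). Etnk1 was selected on this contrast, so its calls are no test of it. ERCC scaling shifted the all-gene median from 0.04 to 0.19 (log2) and turned Pcyt1b to 0.075. Genes with an unadjusted p under 0.05 then numbered 629 higher and 27 lower, against 437 and 234. They numbered 350 and 356 with limma-voom, 337 and 377 with limma on log2(FPKM + 1), 304 and 390 on log2(FPKM + 0.1), 42 and 18 with all 3 groups in 1 fit, and 1193 and 797 with no filter. With 1 embryo left out, values ranged from -0.056 to 0.30 for Chka, from -0.055 to 0.10 for Pcyt1a, from -0.26 to 0.035 for Pcyt1b, from -0.0090 to 0.37 for Pisd, from -0.94 to -0.49 for Pcyt2, from -0.44 to -0.23 for Cept1 and from 0.39 to 0.86 for Pemt. Pemt was 0.27 with limma-voom and with limma on log2(FPKM + 1) or log2(FPKM + 0.1), in place of 0.69. The neighbour pairs passed numbered 3 to 5 with 1 control left out and 2 in HU embryos, a set with 1 embryo fewer. Of the 5 genes most like Etnk1, 2 were among the top 5 by Spearman's rho and 0 after centring by group. In cells, 3 members in place of 1 were at least 2-fold higher without Rn45s and mitochondrial genes, Etnk1 turned to 0.61 (log2 ratio) under that total, and Pisd turned to -0.076 with cells weighted equally and ranged from -0.14 to 0.20 with 1 cell left out. The cause of these changes was not tested. With the replicate number as a block, 0 genes were called (274 higher and 262 lower unadjusted) and Pemt was 0.20 in place of 0.69. Same-numbered embryos correlated at -0.10 to 0.17, and for 0 of 8 numbers was this the best match, so the number was not taken as a pairing. Etnk2 and Chkb had at most 7 counts in an embryo and fell under the main filter, so a difference in them was not detectable by the main test.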
